A study of Mus musculus with 6 samples.

Results

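The cells described here are 107 of 22154 kidney cells that the depositors' annotation calls "mystery cells", the smallest of 15 named classes. The members were taken from that annotation by name. Kidney cells came from C57BL/6J mice aged 16 weeks. Mice in both groups were wild type, and both were fed a gel diet with 104 µmol sodium per kcal. It held furosemide at 70 mg/kg body weight in the furosemide group and vehicle in the vehicle group, for 1 week. Each group had 3 libraries. Furosemide is a loop diuretic: it blocks salt uptake in the thick ascending limb at the apical cotransporter for sodium, potassium and chloride.

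A second clustering in the same annotation, with 22 clusters, places all 107 cells in a cluster named "mixed", and no other cell is in it. The annotation thus holds no cell type name for these cells under either scheme. The markers given for the class, Wnt4 and Wnt9b, were high in it, as described next, and the class is called mystery cells throughout because no file gives it another name. Furosemide libraries 2, 4 and 6 held 14, 33 and 13 mystery cells, and vehicle libraries 1, 3 and 5 held 21, 14 and 12. Library 4 therefore supplied more of the class than any other library.

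Wnt proteins are secreted ligands that signal to nearby cells through Frizzled receptors. In the developing mouse kidney, Wnt9b from the ureteric epithelium, which becomes the collecting duct, induces nephron progenitors, and Wnt4 is needed for these to form an epithelium. Wnt7b from the same epithelium is needed for the medulla to form. In the adult kidney the collecting duct is made of principal cells, which take up sodium and water under aldosterone and vasopressin, and of intercalated cells, which handle acid and base. Its medullary stretch lies in concentrated interstitium, where cells gather organic osmolytes.

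Counts cover a chosen panel of 456 genes. Levels are given as CPM, the counts of a gene scaled to a common total of summed panel counts for the class in each library, so they are shares within the panel. The sources used here do not say if counts stand for molecules or for reads. Mystery cells held 163104 counts in all, 92260 in the furosemide libraries and 70844 in the vehicle libraries. Their median of 1290 counts per cell stood beside 1303 in all other cells, with a range of 291 to 4109. Of the 107 cells, 2 had a cell barcode that also occurred in another library, and no barcode was shared by a pair of mystery cells.

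Wnt4 led the class. Its level was 2752, 1527 and 2826 CPM in furosemide libraries 2, 4 and 6, and 4300, 3182 and 4314 CPM in vehicle libraries 1, 3 and 5. The mean was 3150 ± 1056 CPM in mystery cells and 19.8 ± 5.71 CPM in all other cells (SD, n = 6 libraries), a ratio of 159. Every mystery library lay above every library of the next class, CCD principal cells, which averaged 174 ± 74.7 CPM. OMCD principal cells averaged 162 CPM and Thin Limb cells 118 CPM. Wnt4 was counted in 87.9% of mystery cells and in 0.0223% of Proximal s2/s3 cells, a class of the proximal tubule, with median depths of 1290 and 1472 counts. The share was 19.0% in CCD principal cells, 21.2% in OMCD principal cells and 12.1% in Thin Limb cells. With each cell thinned to 500 counts, which left out 3 mystery cells and 1280 others, Wnt4 was counted in 70.2% of mystery cells and 1.01% of other cells. CCD principal, OMCD principal and Thin Limb cells then had it in 9.02%, 7.95% and 5.31% of cells.

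Wnt9b stood at 2099, 1119 and 2137 CPM in the furosemide libraries and at 4236, 3931 and 3276 CPM in the vehicle libraries. It averaged 2800 ± 1210 CPM in mystery cells and 68.4 ± 25.4 CPM in all other cells, a ratio of 40.9. CCD principal cells were nearer for this gene, with 1010 ± 348 CPM, and the lowest mystery library fell within the range of their libraries. Thin Limb cells had 6.63 CPM. The share of cells with a count was 78.5% in mystery cells and 60.6% after thinning, where CCD principal cells had 28.6%.

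Both ligands occurred together in 75 of the 107 cells, or 70.1%. The other classes held 161 cells with both, among them 124 CCD principal cells and 32 OMCD principal cells, which is 10.1% and 8.58% of those classes. Mystery cells were thus 31.8% of all cells with both ligands. Neither ligand was counted in 4 mystery cells, of which 1 came from furosemide library 2 and 3 from furosemide library 4.

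**Figure D1:**
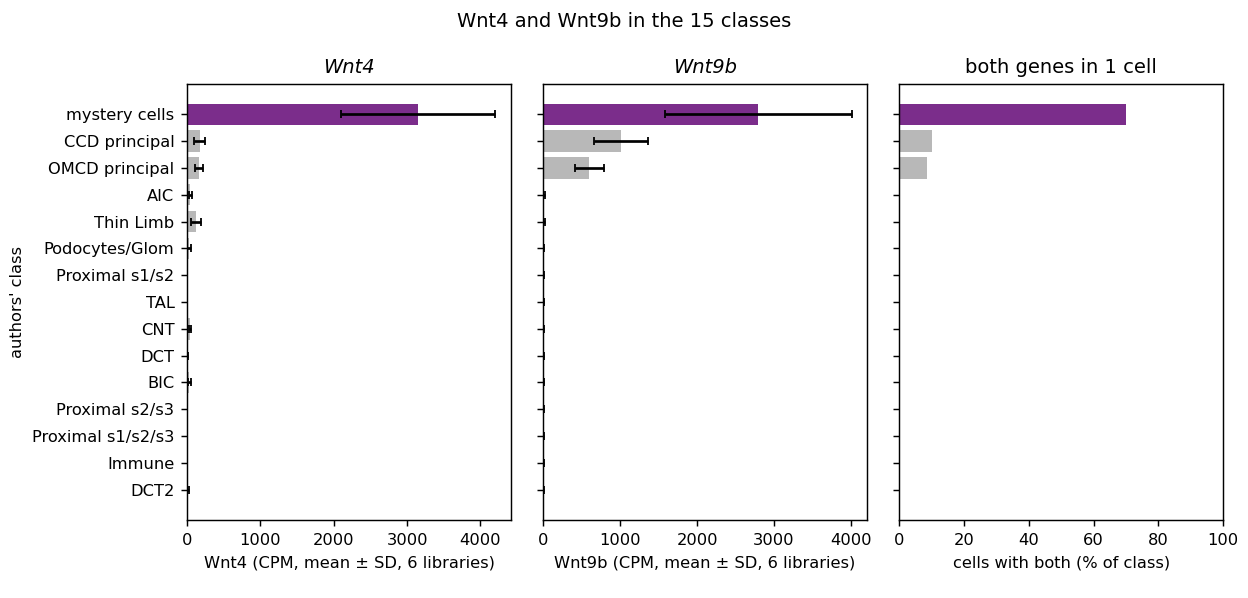
Level of Wnt4 (left) and Wnt9b (middle) in CPM, mean ± SD over 6 libraries, and the percent of cells with a count of both (right), in each of the 15 classes of the authors. Mystery cells, at the top, reach 3150 CPM of Wnt4 against 174 CPM in CCD principal cells, and hold both ligands in 70.1% of cells.

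Of the 12 Wnt ligands in the panel, 5 had their highest class mean in mystery cells and 6 were at 0 in them. Wnt7b averaged 2237 ± 993 CPM in mystery cells, beside 1588 ± 458 CPM in Thin Limb cells and 356 ± 137 CPM in CCD principal cells. The 3 ligands Wnt4, Wnt7b and Wnt9b were counted together in 66 mystery cells. Wnt9a and Wnt5a were sparse, with 17 and 18 counts over the whole class. The ligands at 0 were Wnt3, Wnt6, Wnt7a, Wnt8a, Wnt8b and Wnt11, of which Wnt11 reached 1014 CPM in Thin Limb cells. Signal receivers and targets showed no such pattern: the 5 panel genes of that list summed to 5262 ± 565 CPM in mystery cells, rank 12 of the 15 classes. Ctnnb1, which encodes the Wnt effector beta-catenin, averaged 4511 ± 447 CPM.

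The levels of this class against the others are a description without a test, because the authors drew the class from these same counts. Among the 201 genes with counts in at least 10% of mystery cells and in all 6 libraries, 25 had a ratio above 10 to all other cells. Akr1b3 encodes aldose reductase, which makes the osmolyte sorbitol. It had 13945, 22339 and 26058 CPM in furosemide libraries and 43803, 22791 and 36584 CPM in vehicle libraries, a ratio of 47.6 to all other cells. The next class for it was Thin Limb, with 9756 ± 5791 CPM. Nfat5 encodes the transcription factor that induces aldose reductase under hypertonic conditions. Its mean was 1359 ± 225 CPM in mystery cells, 535 ± 54.5 CPM in CCD principal cells and 939 CPM in Thin Limb cells, and it was highest in mystery cells among the 15 classes.

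Fxyd4 encodes a regulator of the sodium pump that is typical of collecting duct principal cells. It was counted in 95.3% of mystery cells. Its level was 83718, 98290 and 113884 CPM in furosemide libraries and 84430, 89667 and 105766 CPM in vehicle libraries. Every mystery library exceeded every CCD principal library for it, whose mean was 67966 ± 9189 CPM. Thin Limb cells had only 1768 CPM. Aqp2, the vasopressin-regulated water channel of principal cells, was at 312 ± 119 CPM in mystery cells and 301 ± 174 CPM in CCD principal cells, and was counted in 35.5% of mystery cells.

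S100a6, a calcium-binding protein gene, averaged 28025 ± 4672 CPM in mystery cells. Not all cells held it: S100a6 was counted in 77 of the 107 cells, and in 51.5% of those of furosemide library 4. CCD principal cells had 214 ± 137 CPM of it, Thin Limb cells 13603 CPM, and the class Podocytes/Glom 26474 ± 4824 CPM. Nbl1, an antagonist of bone morphogenetic proteins, likewise stood at 3804 ± 441 CPM in mystery cells, at 32.6 ± 18.9 CPM in CCD principal cells and at 4115 ± 800 CPM in Thin Limb cells. Bcat1, the cytosolic transaminase of branched-chain amino acids, had 2514 ± 1457 CPM in mystery cells, 49.2 ± 34.2 CPM in CCD principal cells and 1813 ± 468 CPM in Thin Limb cells. For Nbl1 and Bcat1 the libraries of mystery cells and Thin Limb cells overlapped, and for S100a6 those of mystery cells lay above all Thin Limb libraries.

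Wfs1, which encodes wolframin of the endoplasmic reticulum, averaged 4751 ± 1080 CPM in mystery cells and 707 ± 123 CPM in the next class, Thin Limb, with no overlap of libraries. Slc12a2 encodes the secretory sodium-potassium-chloride cotransporter, a relative of the apical cotransporter of the thick ascending limb. It averaged 2129 ± 391 CPM in mystery cells and 665 ± 335 CPM in the next class, Podocytes/Glom, again without overlap. Adora1, the adenosine receptor that lowers cyclic AMP, had 503 ± 345 CPM, a ratio of 35.2, although vehicle library 5 alone reached 1201 CPM and the other 5 libraries lay between 321 and 420 CPM. Spink8, a serine protease inhibitor gene, averaged 31300 ± 2781 CPM, close to the 34150 ± 5065 CPM of BIC cells and above the 3701 ± 772 CPM of CCD principal cells. Shh, the ligand sonic hedgehog, had 157 ± 44.1 CPM, while no other class had a mean above 30.3 CPM.

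**Figure D2:**
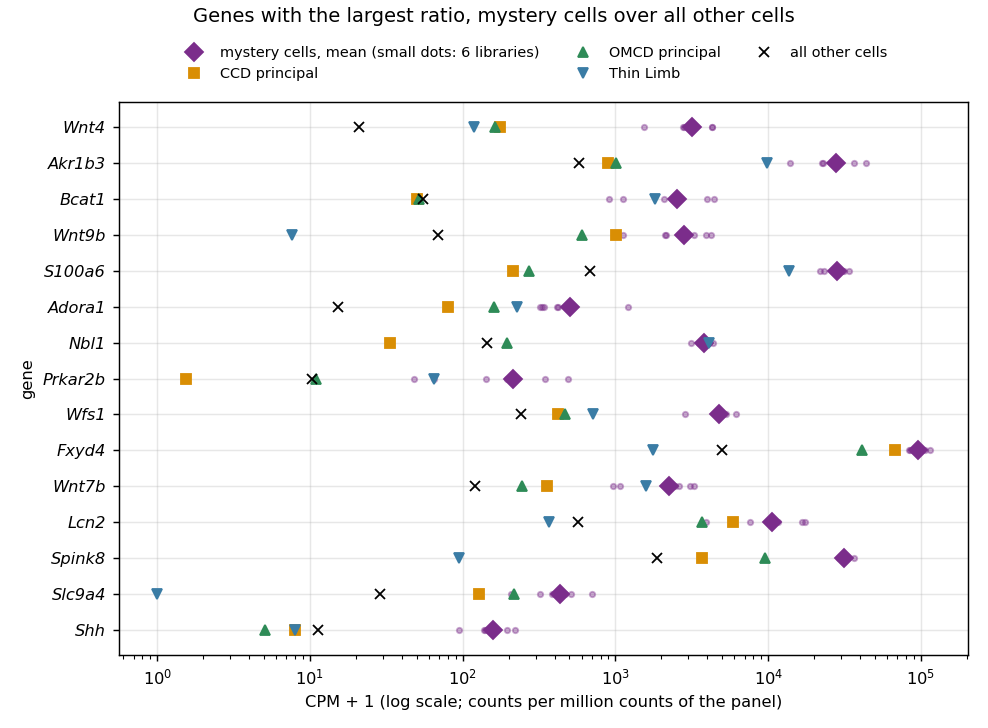
The 15 genes with the largest ratio of mean level in mystery cells to that in all other cells, in CPM plus 1 on a log scale. Diamonds are the mean of mystery cells, small dots their 6 libraries, and the other symbols the means of CCD principal, OMCD principal, Thin Limb and all other cells. Wnt4 has a ratio of 159, and Thin Limb cells come close for Nbl1 while CCD principal cells come close for Fxyd4.

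In all, 40 of the 456 panel genes had their highest class mean in mystery cells, and the count ranged from 4 to 103 over the 15 classes. For 6 of the 40 genes (Wnt4, Wfs1, Shh, Slc12a2, Ly6e and Fxyd4) every mystery library exceeded every library of the next class. The others included Hif1a, a subunit of the hypoxia-inducible factor, with 5367 ± 1090 CPM in mystery cells beside 4218 ± 439 CPM in CCD principal cells. They also included Trpv4, a cation channel that responds to cell swelling, with 1384 ± 226 CPM beside 1259 ± 229 CPM in CCD principal cells, a gap smaller than the SD of either class. The 10 most counted genes took 52.9% of the counts, led by Tmsb4x, Fxyd4, Fos, Ly6e and Cryab. No count was found for 90 panel genes.

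Over all 456 genes, mystery cells ranked genes most like CCD principal cells (Spearman's rho 0.86 across genes), then OMCD principal cells (0.853) and Thin Limb cells (0.826), and least like Immune cells (0.453). Genes are not independent replicates, and the classes share libraries, so these values only describe likeness. Transporters and related genes of the distal nephron were far lower in the class than in CCD principal cells. Kcnj1, the potassium secretory channel, had 25.8 CPM in mystery cells and 6264 CPM in CCD principal cells. The potassium channel gene Kcnj10 had 8.31 CPM against 2501 CPM, and Calb1, a calcium buffer of the connecting tubule, had 117 CPM against 10269 CPM. Hsd11b2, the enzyme that shields the mineralocorticoid receptor from glucocorticoids, had 6960 ± 5116 CPM in mystery cells and 100064 ± 12853 CPM in CCD principal cells. The sodium channel subunits Scnn1a, Scnn1b and Scnn1g had 414, 900 and 862 CPM in mystery cells and 5334, 10877 and 9105 CPM in CCD principal cells.

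Summed marker lists ranked high for the same range of cell types. The list for the inner medullary collecting duct had 11 genes in the panel, and 6 of them were highest in mystery cells (Wnt4, Wnt7b, Wnt9b, S100a6, Fxyd4 and Aqp2). Its sum was 173836 ± 16801 CPM in mystery cells, the highest of the 15 classes, before CCD principal cells at 149464 CPM. This list holds both genes given as markers of the class, so its rank is not independent of how the cells were labelled. The list for principal cells summed to 111450 ± 14593 CPM, second to CCD principal cells at 203887 CPM. Fxyd4 alone had 95959 CPM in mystery cells, most of this sum and of the inner medullary one. In CCD principal cells Fxyd4 had 67966 CPM. The thin limb list summed to 88404 ± 13650 CPM, second to Thin Limb cells at 216230 CPM, while its member Fst was at 0. Some genes that were high in Thin Limb cells were far lower in mystery cells. Aqp1 had 342 CPM in mystery cells and 68247 CPM in Thin Limb cells, and Sod3 had 90.4 and 7703 CPM. The urea transporter Slc14a2, a marker of both the inner medullary collecting duct and the thin limb, had 100 ± 19.9 CPM in mystery cells and 1344 CPM in Thin Limb cells.

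Markers of other cell types varied from list to list. Both lymphocyte genes of the panel, Cd4 and Cd8a, were at 0, as were the thick ascending limb genes Cldn16 and Casr, the renin gene Ren1, and the collagens Col1a1, Col1a2 and Col3a1. The list for the distal convoluted tubule summed to 1558 ± 446 CPM, the lowest of the 15 classes. Intercalated cell genes summed to 36123 ± 4291 CPM, most of it Spink8, beside 272247 CPM in BIC cells. Other lists were not low. The list for fibroblasts and stroma summed to 5019 ± 1203 CPM in mystery cells, rank 6 of the 15 classes, beside 5078 CPM in all other cells. The endothelial list, at 871 ± 963 CPM, had rank 3, and the list for parietal epithelial cells, at 3338 ± 1085 CPM, had rank 4. Wnt4, at 3150 CPM, belongs to the parietal list and to that for fibroblasts and stroma, and gave most of each sum. Both ranks are thus not independent of how the cells were labelled. Plat, an endothelial list member, had 2471 CPM in vehicle library 1, where 1 cell gave 55.8% of its counts. The list for urothelium, with Psca and Shh, was highest in mystery cells at 1022 ± 1071 CPM. Its Psca part came from few cells: 1 cell gave 84.6%, 96.3% and 65.1% of the Psca counts in furosemide libraries 2, 4 and 6 and 95.5% in vehicle library 3. In vehicle library 5 Psca had 2 counts, and in vehicle library 1 it was at 0.

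Counts of genes that mark abundant neighbours were present within the range of other classes. Umod of the thick ascending limb was counted in 27.1% of mystery cells and, after thinning, in 14.4%, within the 10% to 66.3% of 11 classes that should lack it. The range for Umod is wide, so lying within it says little. Slc12a1, another gene of the thick ascending limb, was counted in 9.62% after thinning, near the top of 3.98% to 10.4% of such classes. Kap of the proximal tubule was counted in 44.2% after thinning, within 37.3% to 62.3% of such classes. Whether such counts were background or expression was not tested.

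**Figure D3:**
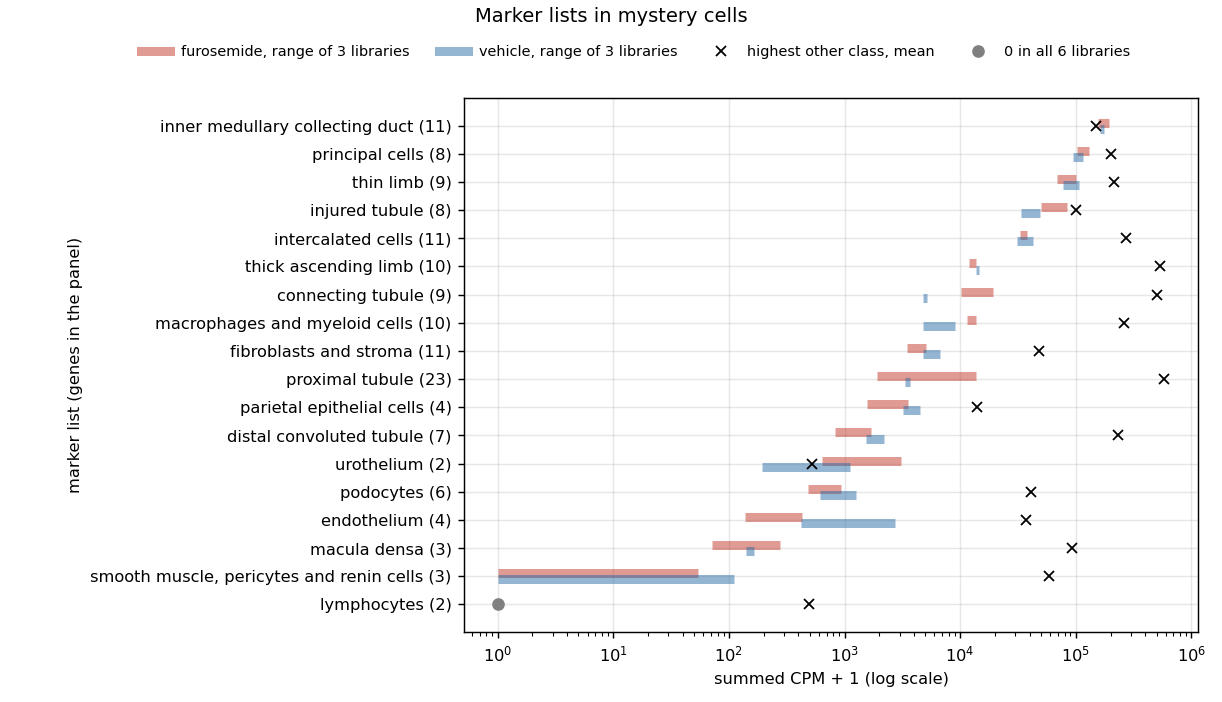
Summed level of 18 marker lists in mystery cells, in CPM plus 1 on a log scale, with the number of panel genes in brackets. Bars span the 3 furosemide libraries (red, upper) and the 3 vehicle libraries (blue, lower), crosses mark the highest other class, and a dot marks a list at 0. Mystery cells exceed the cross for the inner medullary collecting duct list. The lists for the connecting tubule, the thick ascending limb, macrophages and the injured tubule do not overlap between treatments in CPM, which carry no TMM scaling. The gap is narrow for the thick ascending limb, with 11986 to 13603 CPM with furosemide and 13665 to 14470 CPM with vehicle. It is narrow for the injured tubule too, where the lowest furosemide library has 49633 CPM and the highest vehicle library 49466 CPM. Of single genes tested, 17.6% did not overlap.

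The cells differed among themselves. Psca, a surface antigen known from urothelium, was counted in 12 of the 107 cells, and in 9 of these Wnt4 was counted too. Shh was counted in 15 cells, 2 of them with Psca. Sprr1a, a gene of stratified epithelia, was counted in 3 cells, 1 in each furosemide library. All 3 held Psca, none held Wnt9b, and 1 held Fxyd4. Fxyd4 was missing from 5 cells, with a median depth of 761 counts beside 1298 in the rest. Of the cell-cycle genes, Mki67 was counted in 1 cell and Birc5 in 2.

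Slc4a1, the anion exchanger of acid-secreting intercalated cells, was counted in 8 cells, all of them from vehicle libraries. Its level was 0 in the 3 furosemide libraries and 1733, 187 and 1474 CPM in vehicle libraries 1, 3 and 5. The furosemide level was at least 34.8-fold lower, with 3 counts over the group as the floor. A few cells carried the counts: 1 cell held 79.6% of those in vehicle library 1 and the single positive cell held all in vehicle library 5. The 8 cells had a median of 2424 counts, against 1242 in the others. The filter on low counts left the gene out of the edgeR test, and DESeq2 called it. Other intercalated cell genes had lower means with furosemide too. Of 6 tested members of that list 0 were called, 5 had a negative change, and the median log2 change was -1.15. Over all 131 tested genes 3 were called, 64 had a negative change and the median was 0.01. Atp6v1g3, a proton pump subunit gene, had 793, 515 and 0 CPM in furosemide libraries and 3562, 702 and 1802 CPM in vehicle libraries, which overlapped (-2.01 ± 0.87, edgeR adjusted p = 0.337). Aqp6, a water channel gene of intercalated cells, had 560, 53.3 and 68.9 CPM in furosemide libraries and 2567, 187 and 983 CPM in vehicle libraries, which overlapped (-2.47 ± 1.14, edgeR adjusted p = 0.353). In vehicle library 1 a single cell gave 55.9% of the Atp6v1g3 counts and 52.5% of the Aqp6 counts. The sum of the list overlapped, with 32741 to 37640 CPM in furosemide libraries and 31215 to 42616 CPM in vehicle libraries, but it was mostly Spink8, whose change was 0.21 ± 0.15.

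The first question on treatment was whether the class took another share of the kidney's cells. Mystery cells were 0.459%, 0.743% and 0.362% of the cells of furosemide libraries 2, 4 and 6, with exact 95% binomial intervals of 0.251% to 0.769%, 0.512% to 1.04% and 0.193% to 0.619%. They were 0.514%, 0.422% and 0.326% of vehicle libraries 1, 3 and 5, with intervals of 0.319% to 0.785%, 0.231% to 0.707% and 0.169% to 0.569%. The intervals cover counting error only. The groups overlapped. The mean was 0.522% ± 0.198 with furosemide and 0.421% ± 0.0941 with vehicle (SD, n = 3 each; log2 ratio 0.31; two-sided exact permutation p = 0.6). With 3 against 3 libraries such a test cannot go below 0.1. The difference rested on furosemide library 4, without which the log2 ratio was -0.04. The share is of the cells deposited, which the authors had brought to equal numbers per treatment.

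Within the class, 131 genes passed the filter on low counts and were tested with edgeR on counts summed per library. At an adjusted p under 0.05, 3 genes were called, 2.29% of those tested, and all 3 were higher with furosemide. Hsd11b2 and Scnn1g act in aldosterone-sensitive sodium uptake, and Lcn2 encodes a secreted protein. Of the genes tested 0 were called lower (0%). At an unadjusted p under 0.05 there were 20 genes, 15.3% of those tested, with 14 higher and 6 lower. The libraries of the treatments did not overlap for 23 genes (17.6%), of which 10 were higher (7.63%) and 13 lower (9.92%) with furosemide. The median log2 change over all tested genes was 0.01. The labels do not say that libraries of a group came from separate animals, so that p-values measure the spread between these libraries only.

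Hsd11b2 stood at 7089, 15449 and 10272 CPM in furosemide libraries 2, 4 and 6, and at 2888, 2621 and 3440 CPM in vehicle libraries 1, 3 and 5. Library 4 was the highest, and all furosemide libraries lay above all vehicle libraries. The log2 change was 1.99 ± 0.33 (SE; edgeR adjusted p = 0.0448, higher in 3 of 3 libraries). The cells shared this level unevenly, since 1 cell gave 46.7% of the counts in library 2, 16.4% in library 4 and 48.3% in library 6. In vehicle libraries 1, 3 and 5 a single cell gave 24.4%, 60.7% and 30.2%. The median cell had 1151, 3496 and 7184 CPM in furosemide libraries and 484, 1083 and 2577 CPM in vehicle libraries, and these medians overlapped.

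Scnn1g encodes the gamma subunit of the epithelial sodium channel. It had 1353, 1367 and 1172 CPM in furosemide libraries, all above the 578, 374 and 328 CPM of vehicle libraries (log2 change 1.68 ± 0.31, edgeR adjusted p = 0.0448). It was sparse: 29, 77 and 17 counts stood behind the furosemide values and 18, 8 and 6 behind the vehicle values. In furosemide library 6 only 2 of 13 cells held it, and 1 cell gave 94.1% of the counts. The call ended with DESeq2 (adjusted p = 0.1), with limma-voom (adjusted p = 0.0706) and without the filter on low counts (edgeR adjusted p = 0.0812). Scnn1b, the beta subunit, had 933, 1847 and 689 CPM in furosemide libraries and 802, 421 and 710 CPM in vehicle libraries, which overlapped (1.00 ± 0.45, edgeR adjusted p = 0.337). Scnn1a was too low to be tested, at 840, 408 and 0 CPM in furosemide libraries and 321, 421 and 491 CPM in vehicle libraries.

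Lcn2 encodes lipocalin-2, which binds iron-carrying siderophores and is induced in stressed tubules. It had 16604, 17456 and 11581 CPM in furosemide libraries and 5905, 3931 and 7590 CPM in vehicle libraries, without overlap (log2 change 1.51 ± 0.29, edgeR adjusted p = 0.0448). It was counted in 94 of the 107 cells. The median cell had 9341, 10211 and 4274 CPM in furosemide libraries and 4800, 3929 and 5809 CPM in vehicle libraries, so that library 6 overlapped by this measure.

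The 3 calls depended on the libraries and cells used, and the settings on cells were added after the data had been seen. Without furosemide library 4, without vehicle library 1 or without vehicle library 5 no gene was called, and without furosemide library 2 only Hsd11b2. Without vehicle library 3 none of the 3 was called. Without furosemide library 6 the count was 7, all 3 among them. Without the 14 cells that held Psca or Sprr1a or lacked Fxyd4 the count was 0. With an equal number of 12 cells per library it was 5, the 3 genes included, and with scaling by library size alone it was 0. The 3 log2 changes kept their sign under each of these settings in which the gene was tested.

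**Figure D4:**
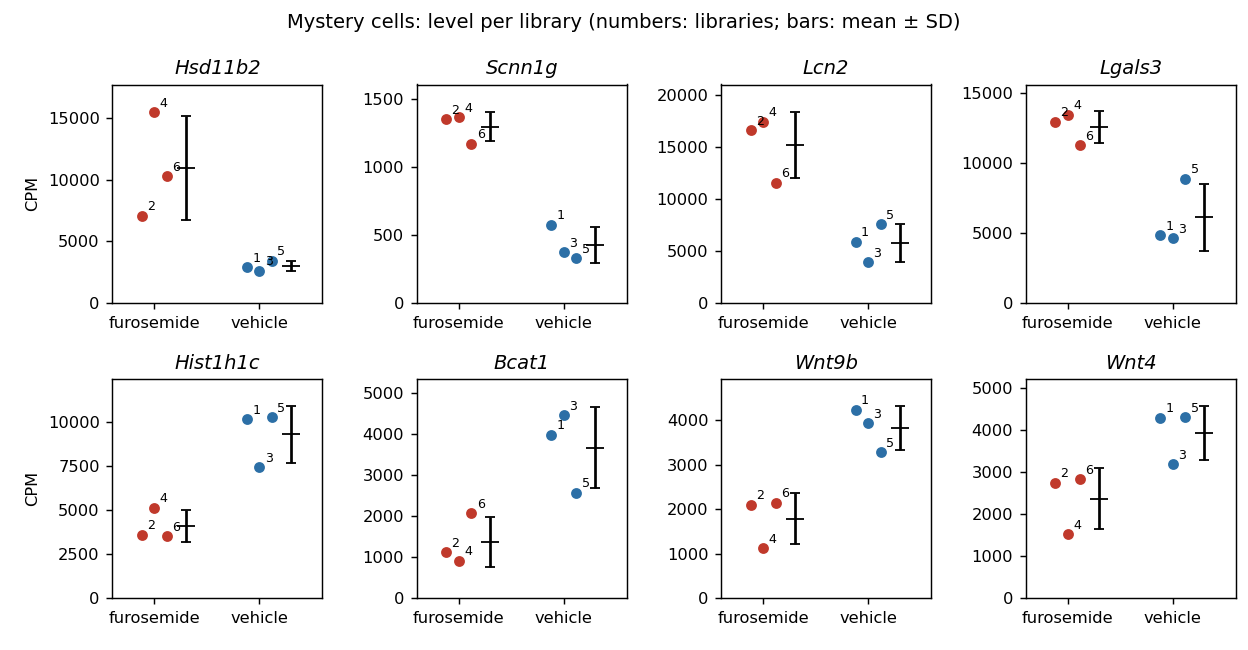
Level in mystery cells, in CPM, of 8 genes in each library (points, numbered by library), furosemide left and vehicle right, with mean ± SD beside them (n = 3 each). Hsd11b2, Scnn1g and Lcn2 were called higher by edgeR, with log2 changes of 1.99, 1.68 and 1.51, and the remaining 5 genes were not called although their libraries do not overlap.

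Genes that encode Wnt ligands had lower means with furosemide, but none was called. Wnt9b had the larger change of both markers, with 1785 ± 577 CPM in furosemide libraries and 3814 ± 490 CPM in vehicle libraries (log2 change -1.02 ± 0.30, edgeR adjusted p = 0.146, lower in 3 of 3 libraries). Its libraries did not overlap, and neither did the level of the median cell, at 2340, 761 and 2604 CPM with furosemide and 3763, 3437 and 3162 CPM with vehicle. Wnt4 averaged 2368 ± 730 CPM with furosemide and 3932 ± 649 CPM with vehicle (-0.65 ± 0.29, edgeR adjusted p = 0.337), also without overlap. The median cell did overlap for Wnt4, at 2409, 1406 and 3436 CPM with furosemide and 3512, 3406 and 3435 CPM with vehicle. Wnt7b had 1073, 959 and 2620 CPM in furosemide libraries and 2439, 3276 and 3058 CPM in vehicle libraries, which overlapped (-0.86 ± 0.42, edgeR adjusted p = 0.359). Summed, the 12 ligands ranged from 3765 to 7652 CPM with furosemide and from 10764 to 11200 CPM with vehicle. Of the 3 ligands tested, 0 were called in either direction, with a median log2 change of -0.86 beside 0.01 over all tested genes. Furosemide library 4 had the lowest level of Wnt4 and of Wnt9b and the highest of Hsd11b2. Its part in these differences can be seen without it: the log2 change of Wnt9b was then -0.74 and that of Wnt4 -0.39.

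Other genes had changes of similar size that missed the threshold. Hist1h1c, a linker histone gene, had the smallest p among genes with lower levels, with 4080 ± 912 CPM with furosemide and 9293 ± 1605 CPM with vehicle (log2 change -1.06 ± 0.25, edgeR adjusted p = 0.107). Bcat1 had 1119, 906 and 2068 CPM in furosemide libraries and 3979, 4446 and 2566 CPM in vehicle libraries, without overlap (-1.37 ± 0.39, edgeR adjusted p = 0.142). Lgals3, which encodes galectin-3, had 12919, 13407 and 11237 CPM in furosemide libraries and 4814, 4633 and 8846 CPM in vehicle libraries (1.16 ± 0.28, edgeR adjusted p = 0.107). The macrophage list of which Lgals3 is a member followed it, at 11444 to 13603 CPM with furosemide and 4820 to 9010 CPM with vehicle, while its defining genes C1qa, Lyz2, Itgax and Ccr2 were at 0 in both groups. Clu, a secreted chaperone gene, had 2658, 3285 and 1034 CPM in furosemide libraries and 481, 1123 and 546 CPM in vehicle libraries, which overlapped (1.83 ± 0.53, edgeR adjusted p = 0.144).

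By list, connecting tubule genes had 4 tested members, of which Hsd11b2 and Scnn1g were called higher, with a median log2 change of 1.34. The whole list of 9 genes summed to 10261 to 19196 CPM in furosemide libraries and to 4814 to 5133 CPM in vehicle libraries, and most of it was Hsd11b2. Whether admixed material of connecting tubule or CCD principal cells had a part in these calls was not tested. Calb1, another member of the list, had 187, 35.5 and 207 CPM in furosemide libraries and 64.2, 46.8 and 164 CPM in vehicle libraries, which overlapped. Principal cell genes had 5 tested members, with the same Hsd11b2 and Scnn1g called higher and none lower, and a median of 1.00. Their sums overlapped, at 101721 to 131463 CPM with furosemide and 94987 to 115813 CPM with vehicle. Of 12 tested genes of sodium transport, Hsd11b2 and Scnn1g were again the 2 called higher, none was lower, and the median was 0.08. The lists thus share the same 2 calls, which stand beside 2.29% called and a median of 0.01 over all tested genes. Fxyd4 (0.19 ± 0.16) and the sodium pump subunit Atp1b1 (-0.14 ± 0.17) had changes near 0. Nedd4l, the ligase that removes the epithelial sodium channel from the membrane, had 746, 1119 and 1448 CPM in furosemide libraries and 610, 515 and 710 CPM in vehicle libraries (0.95 ± 0.33, edgeR adjusted p = 0.226). The immediate early and stress genes, which respond to tissue dissociation, had 7 tested members, none called, with a median of -0.04.

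The next question was whether furosemide acted on these cells otherwise than on other cells. Against all other cells, with the library as a block, edgeR called 0 of 131 genes for a different effect (0%), and 23 genes had an unadjusted p under 0.05 (17.6%). The smallest edgeR adjusted p, 0.109, belonged to Lcn2, Emp1, Adamts1 and Plaur. Without vehicle library 3 the count was 2. For Hsd11b2 the log2 change in mystery cells exceeded that in all other cells by 1.14 ± 0.33 (edgeR adjusted p = 0.223).

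Against CCD principal cells, the class most like them, 6 of 131 genes were called (4.58%), and 20 had an unadjusted p under 0.05 (15.3%). This comparison was added after the data had been seen. All 6 had the more positive change in mystery cells. Hsd11b2 had a log2 change of 1.99 ± 0.33 in mystery cells and 0.33 ± 0.12 in CCD principal cells, where it averaged 109694 ± 10600 CPM with furosemide and 90434 ± 4731 CPM with vehicle. Scnn1g had 1.68 ± 0.31 in mystery cells and 0.38 ± 0.13 in CCD principal cells, and Lcn2 had 1.51 ± 0.29 and 0.04 ± 0.19. The levels in mystery cells stayed far below those of CCD principal cells for Hsd11b2 in both treatments, and above them for Lcn2 with furosemide, at 15214 ± 3174 CPM in mystery cells beside 5824 ± 84.6 CPM. None of the 3 genes was called for furosemide within CCD principal cells (edgeR adjusted p = 0.223, 0.208 and 0.964).

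The other 3 genes had opposite signs in the 2 classes. Adamts1, a secreted metalloproteinase gene, changed by 1.71 ± 0.43 in mystery cells and by -0.51 ± 0.20 in CCD principal cells. Emp1, an epithelial membrane protein gene, changed by 0.97 ± 0.35 in mystery cells and by -0.66 ± 0.16 in CCD principal cells. Plac8 changed by 1.35 ± 0.57 in mystery cells, where it had 1259, 1492 and 758 CPM with furosemide and 481, 140 and 928 CPM with vehicle, and by -2.01 ± 0.77 in CCD principal cells. There it was near the floor, at 20.4 ± 18.1 CPM with furosemide and 104 ± 64.9 CPM with vehicle. Neither class alone gave a call for these 3 genes. Of the 6 genes, 4 were far higher in CCD principal cells than in mystery cells: Hsd11b2 14.4-fold, Scnn1g 10.6-fold, Adamts1 9.71-fold and Emp1 8.26-fold. Such gaps were common: of 111 genes with at least 1000 CPM in either class, 36 were lower in mystery cells without overlap of libraries. Some other genes higher in CCD principal cells, picked after their values were seen, also had positive changes in mystery cells without a call. Among them were Clu (14.5-fold higher in CCD principal cells), Lgals3 (4.66-fold), Nedd4l (2.38-fold) and Cldn4 (2.09-fold). Not all such genes rose, and Atp1b1 (2.01-fold) changed little. Rhbg (10.6-fold) was lower, with 560, 320 and 68.9 CPM in furosemide libraries and 1540, 562 and 1310 CPM in vehicle libraries. The part in these differences of material from CCD principal cells was not tested. Without vehicle library 1, without vehicle library 5 or without the 14 cells that held Psca or Sprr1a or lacked Fxyd4, no gene was called in this comparison. Without furosemide library 4 the count was 1, and without furosemide library 6 it was 3.

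**Figure D5:**
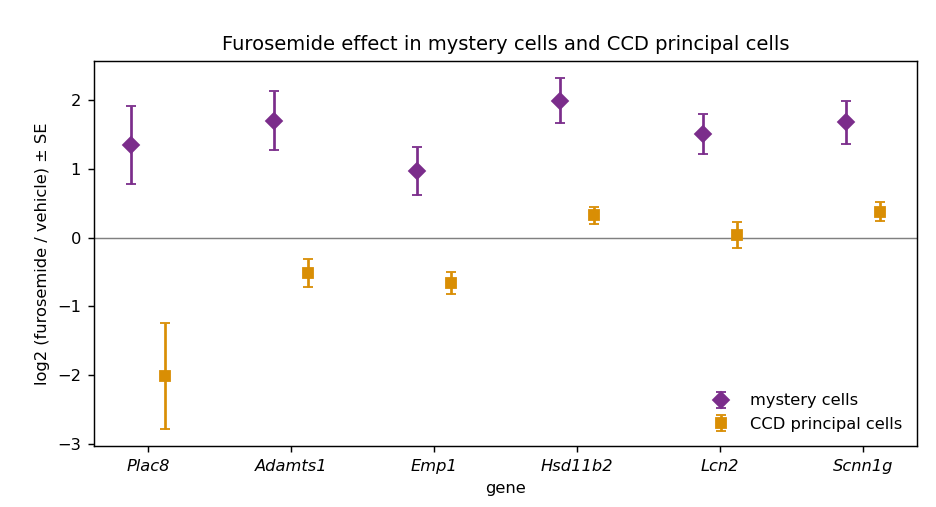
Log2 change with furosemide over vehicle, with its SE from edgeR, in mystery cells (diamonds, left) and CCD principal cells (squares, right), for the 6 genes whose change differed between the classes. Adamts1, Emp1 and Plac8 lie above 0 in mystery cells and below 0 in CCD principal cells, and the remaining 3 genes lie higher in mystery cells.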

How the data were processed

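Per the labels' protocols, kidneys were dissociated mechanically and with collagenase, and BD Rhapsody capture was followed by both WTA and Targeted library assays. The authors deposited whole-number counts per cell and gene, not normalized. Their file names state that doublets and a mixed group were removed and cell numbers made equal, and no doublet caller was run here. Bowtie2 2.2.9 is named in the submitters' processing notes. The genome build and the counting step are not given in the sources used here.

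Member cells, library and treatment were read from the deposited annotation. Counts were summed per library and class. Libraries held 4819988 to 7635509 counts. Treatment was tested with edgeR 4.0.16 in R 4.3.3 (TMM, filterByExpr, robust glmQLFit, glmQLFTest), with Benjamini-Hochberg adjustment over all 131 genes tested. Differences of effect used an interaction with the library as a block. Log2 changes are furosemide over vehicle. DESeq2 1.42.0 and limma 3.58.1 (voom) were alternatives. The fits were tested on simulated data. Cell shares used two-sided exact permutation over libraries.

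Named genes follow a rule: the 2 markers, the 15 largest ratios, the 10 most counted, those highest in the class, called genes or the 3 smallest p per direction, and list members. Genes such as Adamts1, Emp1, Plac8, Lgals3, Clu, Nedd4l, Cldn4, Spp1, Sgk1, Sprr1a, Kcnj10 and Igfbp6 were named after their values were seen, where no part of the rule takes them. The class, its lists and tests were chosen with earlier results of these data known.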

Additional observations from a re-analysis of the deposited data

Results flagged for a closer look

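The change with furosemide differed between mystery cells and CCD principal cells for 6 genes, by a test of the difference itself (edgeR interaction of class and treatment, library as block, 131 genes tested). The difference is the log2 change in mystery cells minus that in CCD principal cells. It was 3.59 ± 0.58 for Plac8, 2.27 ± 0.39 for Adamts1, 1.44 ± 0.25 for Lcn2 and 1.59 ± 0.27 for Hsd11b2 (SE; edgeR adjusted p = 0.0207 for each). It was 1.67 ± 0.34 for Emp1 and 1.31 ± 0.27 for Scnn1g (edgeR adjusted p = 0.0388 for each). The Plac8 value rests on low counts in CCD principal cells, and in mystery cells on 27, 84 and 11 counts in furosemide libraries and 15, 3 and 17 in vehicle libraries. The Adamts1 value rests on 22, 41 and 15 counts in furosemide libraries and 8, 10 and 3 in vehicle libraries, and 1 cell gave 93.3% of those in furosemide library 6. Emp1 had 107, 188 and 52 counts in furosemide libraries and 102, 29 and 34 in vehicle libraries. The part of single cells in these differences was not tested.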

How the results depend on the processing

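Of 387 log2 values of named genes under alternatives, all 387 kept their direction, and of 189 levels only Spink8 moved by over 1 SD, to 34410 CPM without the 14 cells that held Psca or Sprr1a or lacked Fxyd4. Part of this could not turn out otherwise. The setting that kept the second clustering's main cluster kept all 107 cells, so its values equal the main ones. Leaving out 1 of 6 libraries cannot move a mean level by 1 SD. The count of genes called for furosemide, 3, was 0 with library size alone, 5 with equal cell numbers, 0 without the 14 cells and 5 without the Slc4a1 cells. It ranged from 0 to 7 with a library left out. It was 3 with RLE factors. DESeq2 called 4, of which 2 were among the 3, and limma-voom, thinned cells and no filter on low counts each left 2, without Scnn1g. The cause was not tested. The count for a different effect from all other cells, 0, became 2 without vehicle library 3 and ranged from 0 to 2 over the left-out libraries. The count against CCD principal cells, 6, was 3 with library size alone, 2 with thinned cells and 0 without the 14 cells, and from 0 to 9 with a library left out. The log2 ratio of shares was -0.0357 to 0.51 with a library left out, the lowest without furosemide library 4, where it reversed. The number of genes highest in mystery cells, 40, ranged from 32 to 42. Alternatives on single cells and equal numbers were chosen after seeing the data. No paired analysis was possible because library numbers could not be joined to the replicate numbers of the titles. Depth limits rare genes: over the class, 3 counts correspond to 18.4 CPM.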

Other observations

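Injury-associated genes of the tubule were uneven in mystery cells. Their list of 8 panel genes summed to 49633 to 84310 CPM in furosemide libraries and 33438 to 49466 CPM in vehicle libraries. Of 4 tested members Lcn2 was called higher, the median log2 change was 1.30, and Havcr1, Vcam1 and Timp1 were at 0. Over all 131 tested genes 3 were called and the median was 0.01. Spp1, which encodes osteopontin, varied widely between libraries, with 26538, 10530 and 50944 CPM in furosemide libraries and 1091, 24897 and 17801 CPM in vehicle libraries, which overlapped.

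The tight junction gene Cldn4 reached 47236 CPM in furosemide library 4, while furosemide libraries 2 and 6 had 12313 and 22611 CPM and vehicle libraries 1, 3 and 5 had 15371, 7722 and 8736 CPM. The edgeR log2 change was 1.49 ± 0.52 (adjusted p = 0.226), and DESeq2 called the gene. Sgk1, a kinase induced by aldosterone, had 3545, 3321 and 6756 CPM in furosemide libraries and 6450, 7254 and 8190 CPM in vehicle libraries, which overlapped (-0.59 ± 0.32, edgeR adjusted p = 0.4). Slc12a2 had 2006, 1651 and 1861 CPM in furosemide libraries and 2631, 2059 and 2566 CPM in vehicle libraries, without overlap (-0.29 ± 0.23, edgeR adjusted p = 0.627).

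Genes of insulin-like growth factor signalling summed over 11 panel genes to 620 to 1399 CPM in furosemide libraries and 515 to 2730 CPM in vehicle libraries, rank 9 of the 15 classes. Igfbp6, a binding protein for these factors, had 202 CPM in mystery cells and 16.5 CPM in all other cells.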
